A study of Mus musculus with 6 samples.

Results

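The genes described here are 9 genes of glutamine and glutamate metabolism in a mouse glial cell line: *Slc1a5*, *Gls2*, *Glud1*, *Got1*, *Got2*, *Gpt2*, *Asns*, *Oat* and *Aldh18a1*. They were chosen by pathway and not by a measured value, though with earlier results of these data known. Their probes were found through the RefSeq accession that the scanner output gives for each probe. All 9 were on the array, among 22911 genes that could be named, and all 9 were among the 14898 genes tested. RNA was taken from OS3 cells, a glial line labelled as from male C3H mouse brain, and described in the study as made from newborn C3H/HeN animals and immortalized with SV40. The WT group (OS3-vector) carried only the empty vector, and the IG27 group (OS3-H3F3A_K27M) had been transfected with a plasmid for histone H3.3 in which lysine 27 is replaced by methionine. Both groups were cultured for 2 days in MEM-α with GlutaMAX, a stabilized glutamine dipeptide, together with serum, insulin, glucose and antibiotics, and 3 dishes of each were harvested, giving 1 single-color Agilent array per dish. Cells were selected with a drug and several clones were made, and which clone or clones gave the RNA is not given in the sources used here, so an effect of the mutation and a difference between clones cannot be told apart. The labels name separate dishes and nothing more, so the p-values measure the spread between dishes of 1 line.

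Glutamine enters cells through carriers such as ASCT2, is split to glutamate and ammonia in mitochondria, and feeds the TCA cycle when glutamate becomes α-ketoglutarate. That last step is done either by glutamate dehydrogenase, which releases ammonia, or by transaminases, which pass the amino group on to make aspartate, alanine and other amino acids. Glutamate is also the source of proline and ornithine, and glutamine gives its amide group to asparagine. In brain, glial cells take up the glutamate that neurons release and turn it into glutamine.

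The promoters of 4 of these genes are shown because *Asns*, *Got1* and *Aldh18a1* carry a match to a searched motif and because *Got1* and *Got2* encode the same reaction in different compartments. RefSeq promoter windows of the GRCm38.p6 build were at hand for 7 of the 9 genes (*Glud1*, *Got1*, *Got2*, *Gpt2*, *Asns*, *Oat* and *Aldh18a1*), and each window has 300 bases, of which the 250 before the annotated start are printed, 5′ to 3′ along the gene. Capitals mark a match to the C/EBP-ATF response element (TGATGNAA) or to the E-box (CACGTG), searched on both strands, which do not overlap each other here. The printed stretch is chr6:7693210-7693459 on the minus strand for *Asns*, chr19:43524606-43524855 on the minus strand for *Got1*, chr19:40588464-40588713 on the minus strand for *Aldh18a1* and chr8:95888402-95888651 on the minus strand for *Got2*.
Asns: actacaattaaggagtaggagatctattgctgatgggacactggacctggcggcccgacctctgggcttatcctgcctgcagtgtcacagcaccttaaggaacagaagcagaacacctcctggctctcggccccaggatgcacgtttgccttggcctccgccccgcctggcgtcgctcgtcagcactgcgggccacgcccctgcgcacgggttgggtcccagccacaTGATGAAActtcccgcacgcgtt
Got1: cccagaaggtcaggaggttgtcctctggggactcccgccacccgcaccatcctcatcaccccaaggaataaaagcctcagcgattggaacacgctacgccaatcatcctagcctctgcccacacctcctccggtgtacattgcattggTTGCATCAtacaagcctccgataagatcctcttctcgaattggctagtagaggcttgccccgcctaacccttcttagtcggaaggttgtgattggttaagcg
Aldh18a1: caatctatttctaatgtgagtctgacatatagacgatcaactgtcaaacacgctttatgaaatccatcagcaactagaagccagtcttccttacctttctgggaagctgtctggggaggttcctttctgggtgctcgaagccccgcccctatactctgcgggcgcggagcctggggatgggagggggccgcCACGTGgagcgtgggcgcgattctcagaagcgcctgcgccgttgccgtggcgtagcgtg
Got2: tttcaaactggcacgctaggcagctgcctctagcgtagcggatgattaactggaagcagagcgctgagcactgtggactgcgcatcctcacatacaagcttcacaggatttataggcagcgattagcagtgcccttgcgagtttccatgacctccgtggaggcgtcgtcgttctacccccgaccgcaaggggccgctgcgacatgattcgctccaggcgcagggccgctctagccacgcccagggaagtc
The *Asns* window held TGATGAAA on the gene's own strand, its first base at -23 from the start. The *Got1* window held the element on the opposite strand, at -102. The *Aldh18a1* window held an E-box at -59. Of all 32851 promoter windows, 3.97% held the C/EBP-ATF response element and 7.15% held the E-box. The windows of *Glud1*, *Got2*, *Gpt2* and *Oat* held neither sequence of letters. A match is a description of the letters and not a binding site.

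Values are log2 of the processed signal minus the 75th percentile of the same array, called normalized log2 intensity, and a difference is IG27 minus WT on that scale. Background flags exist for 5 of the 6 arrays, all but IG27 replicate 2, and per array 58.8% to 61.2% of 56605 probes stood well above background. Correlation between arrays was 0.994 to 0.997 within a group and 0.902 to 0.905 between groups. The comparison called many genes: 70.5% of all genes tested passed an adjusted p of 0.05 in limma, 30.5% as higher and 40% as lower in IG27 cells, and 23.1% passed with a change of at least 2-fold. *H3f3a*, the gene of the transfected plasmid, was at 6.96, 6.70 and 6.85 in WT and 6.61, 6.52 and 6.61 in IG27 cells (difference -0.26, SE 0.08, adjusted p = 0.0237 in limma, -0.09 with an adjusted p of 0.403 when the gene's probes were averaged). Where its probe lies relative to the plasmid insert is not given in the sources used here, so it does not check the labels. Of 8 astrocyte markers 7 were tested, 2 rose and 3 fell, with a median difference of 0.01. *S100b* rose by 4.93 and *Slc1a3* also rose, while *Slc1a2* and *Aldh1l1* fell by 1.03 and 1.72. The brightest probe of *Gfap* fell by 1.07 and its second probe was 0.19 higher, both well above background in both groups. The summed intensity of the 7, in units of the array's 75th percentile, was 98.3 to 108 in WT and 57.6 to 66.0 in IG27 cells, and most of it was the brightest *Gfap* probe. All 7 oligodendrocyte lineage markers were tested, 4 rose and 2 fell, with a median of 0.92 (*Pdgfra* 2.36, *Olig2* 1.51 and *Olig1* 1.48). That median is the brightest probe of *Mbp*. Its other probes moved in opposite directions, by 0.74 and -2.30, and each *Mbp* probe was well above background in both groups. The sum of the 7, of which *Sox10* was the largest share, was 73.4 to 75.6 in WT and 74.5 to 77.1 in IG27 cells. Of 5 fibroblast markers 3 were tested. *Col1a1* (-0.92, and -0.33 on its second probe) and *Pdgfrb* (-1.16) fell. *Dcn*, not well above background in WT and tested through its IG27 arrays alone, was at least 3.32-fold higher in IG27 cells. With normexp correction of the scanner's median signals and an offset of 50, its difference was 0.96, smaller than that bound. The sum of the 3, mostly *Col1a1*, was 126 to 129 in WT and 64.3 to 69.6 in IG27 cells. Of 6 neuron markers 3 were tested, of which 1 fell and none rose, and their sum was 17.5 to 19.9 in WT and 6.67 to 7.47 in IG27 cells. Of 5 microglia markers 4 were tested, 2 rose and 2 fell, and their sum was 4.93 to 5.29 in WT and 2.62 to 2.92 in IG27 cells. Of 4 endothelial markers 1 was tested and fell by 0.27. The part of any of these markers in the results below was not tested.

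Of the 9 genes, 5 rose in IG27 cells (*Slc1a5*, *Gpt2*, *Asns*, *Aldh18a1* and *Got1*), 3 fell (*Glud1*, *Gls2* and *Got2*), and *Oat* did not pass the test. The 8 that passed are to be read against a background of 70.5% of all genes, and the 5 and 3 against 30.5% and 40%. For those same 8 genes no IG27 value lay within the range of the WT values, against 75.7% of all genes. *Slc1a5* and *Glud1* passed with a change of at least 2-fold, against 23.1% of all genes. *Slc1a5* is in each of these counts, though it entered the test through its IG27 arrays alone and so had to differ. The median difference of the 9 genes was 0.46 and that of all genes tested was -0.07, and the median size of the difference regardless of sign was 0.80 and 0.47.

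**Figure D1:**
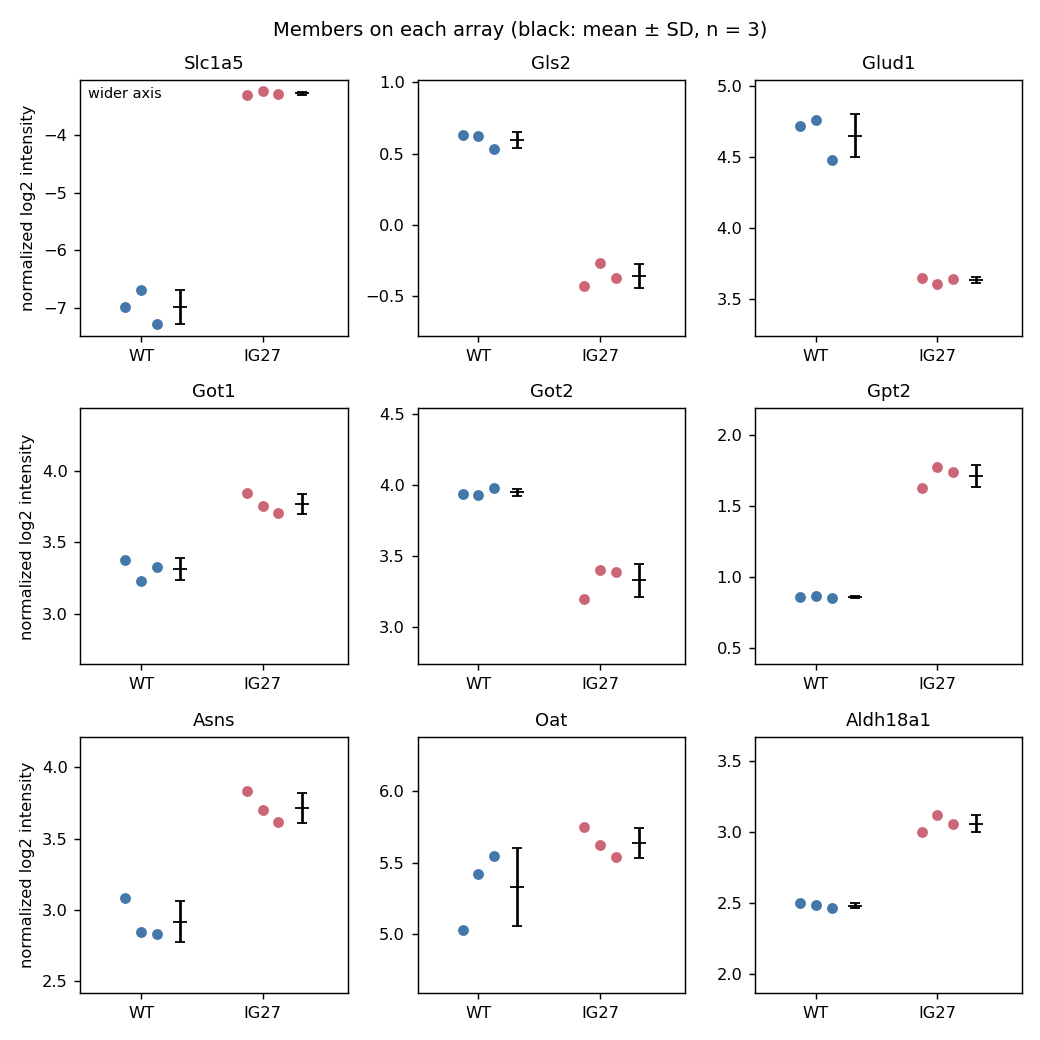
Normalized log2 intensity of the 9 genes on each array, 3 WT (left, blue) and 3 IG27 (right, red) per panel, with the mean and SD of each group in black. All panels span 1.8 log2 units except that of *Slc1a5*, and the WT and IG27 points overlap only for *Oat*.

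*Slc1a5* encodes ASCT2, a plasma membrane exchanger that brings glutamine into the cell. Its normalized log2 intensity was -6.98, -6.68 and -7.28 in WT and -3.31, -3.24 and -3.28 in IG27 cells. All 3 IG27 arrays were above all 3 WT arrays, and the probe was not well above background on any WT array, whereas it was on both IG27 arrays that carry the flag. The processed signal was 8.49, 10.1 and 6.34 in WT and 111, 120 and 103 in IG27 cells. WT cells therefore have only an upper bound for *Slc1a5*, and IG27 cells were at least 5.64-fold higher (adjusted p = 3.23e-06 in limma). The bound sets the IG27 mean against the lowest signal among probes well above background on each WT array. The measured means were -6.98 ± 0.30 and -3.27 ± 0.03 (SD, n = 3), and their difference of 3.71 depended on the background correction, being 1.23 with normexp correction of the scanner's median signals and an offset of 50 (adjusted p = 3.66e-06 in limma), a smaller change than the bound. The gene entered the test through its IG27 arrays alone, so it had to differ to be tested.

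*Gls2* encodes the liver-type glutaminase, which splits glutamine to glutamate. It measured 0.63, 0.62 and 0.53 in WT and -0.43, -0.27 and -0.37 in IG27 cells, with every IG27 array below every WT array. The difference was -0.95 (SE 0.06, adjusted p = 2.63e-05 in limma), from 0.59 ± 0.05 to -0.36 ± 0.08 (SD, n = 3). A second, dimmer *Gls2* probe was well above background on all WT arrays and on neither flagged IG27 array, and on it WT cells were at least 1.67-fold higher (adjusted p = 7.29e-04 in limma over probes). This second probe entered the test through its WT arrays alone, so it had to differ to be tested.

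*Glud1* encodes mitochondrial glutamate dehydrogenase, which turns glutamate into α-ketoglutarate and ammonia. It measured 4.72, 4.76 and 4.48 in WT and 3.65, 3.61 and 3.65 in IG27 cells. The IG27 arrays lay close together and far below the lowest WT array. The difference was -1.02 (SE 0.08, adjusted p = 7.01e-05 in limma), a 2.02-fold lower level. The second probe of *Glud1* gave -1.05.

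The transaminases, which move amino groups between glutamate and keto acids, changed in both directions. *Got1*, the cytosolic aspartate transaminase, measured 3.38, 3.23 and 3.33 in WT and 3.85, 3.76 and 3.71 in IG27 cells. All IG27 arrays were higher, by 0.46 on average (SE 0.06, adjusted p = 8.36e-04 in limma), and the second probe gave 0.35. *Got2*, the mitochondrial aspartate transaminase, measured 3.94, 3.93 and 3.98 in WT and 3.20, 3.41 and 3.39 in IG27 cells. All IG27 arrays were lower, by -0.62 on average (SE 0.07, adjusted p = 3.08e-04 in limma). The change of *Got2* was thus 1.07 log2 units below that of *Got1* (SE 0.11, exact permutation p = 0.1 over 6 arrays, the smallest this design allows). Both enzymes serve the malate-aspartate shuttle, which carries reducing equivalents into mitochondria. *Gpt2*, the mitochondrial alanine transaminase, measured 0.86, 0.87 and 0.86 in WT and 1.62, 1.77 and 1.74 in IG27 cells. The WT arrays were nearly equal and all IG27 arrays were higher, by 0.85 (SE 0.06, adjusted p = 2.59e-05 in limma), and the second probe gave 0.87.

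*Got2* and *Gpt2* both lie on chromosome 8, whose 769 tested genes had a median difference of -0.67, far from the -0.07 of all genes. The value of *Got2* (-0.62) was near that chromosome's median and the value of *Gpt2* (0.85) was on the other side of 0. For the other 7 genes the median of their chromosome lay between -0.28 (chromosome 14, *Glud1*) and 0.18 (chromosome 19, *Got1* and *Aldh18a1*). The part of the chromosome shift in the value of *Got2* was not tested.

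*Asns* encodes asparagine synthetase, which takes the amide group of glutamine to make asparagine from aspartate. It measured 3.08, 2.84 and 2.83 in WT and 3.83, 3.70 and 3.62 in IG27 cells, with no overlap. The difference was 0.80 (SE 0.09, adjusted p = 3.82e-04 in limma), and its second probe gave 1.04.

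*Aldh18a1* and *Oat* encode the enzymes on either side of the intermediate from which proline is made: the first produces it from glutamate, and the second, ornithine aminotransferase, links it to ornithine. *Aldh18a1* measured 2.50, 2.48 and 2.46 in WT and 3.00, 3.12 and 3.05 in IG27 cells. All IG27 arrays were higher, by 0.57 (SE 0.05, adjusted p = 1.0e-04 in limma). *Oat* measured 5.02, 5.42 and 5.55 in WT and 5.75, 5.62 and 5.54 in IG27 cells. WT replicate 1 was lowest and WT replicate 2 was also below every IG27 array. Only WT replicate 3 reached into the range of the IG27 arrays, at 5.545 against 5.542 for IG27 replicate 3. The difference of *Oat* was 0.31 (SE 0.14, 95% interval -0.04 to 0.66, adjusted p = 0.0988 in limma), an interval that includes both no change and the size seen for *Aldh18a1*. It passed under quantile normalization (0.41, adjusted p = 0.0402 in limma) and without WT replicate 3 (0.42, adjusted p = 0.0447 in limma). The change of *Oat* was not separable from that of *Aldh18a1* (-0.27, SE 0.19, exact permutation p = 0.2 over 6 arrays).

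**Figure D2:**
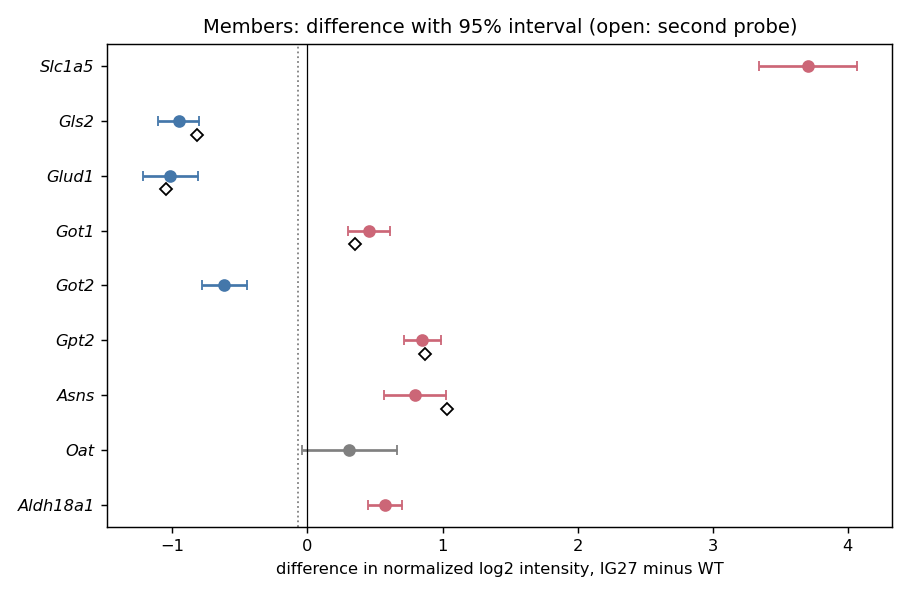
Difference in normalized log2 intensity (IG27 minus WT) of the 9 genes with its 95% interval from limma, red for higher, blue for lower and grey for *Oat*, which did not pass. Open diamonds are second probes, the dotted line is the median of all genes (-0.07), and the value of *Slc1a5* (3.71) rests on a WT level not well above background.

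The genes whose 6 values, centered on their mean, lay nearest to those of *Slc1a5* were *Tmem144* (distance 0.15), *Ddo* (0.18) and *Zfp810* (0.23), in log2 units over 6 arrays. Since *Slc1a5* was not well above background in WT, the 3 WT values of each comparison rest on background and the order of the 3 has no weight. *Ddo*, which encodes D-aspartate oxidase, was well above background in both groups, at -4.38 in WT and -0.63 in IG27 cells. *Tmem144* and *Zfp810* were not well above background on any WT array, entered the test through their IG27 arrays alone, and were at least 2.73-fold and 3.56-fold higher in IG27 cells. With the normexp correction their differences were 0.82 and 0.93, smaller than these bounds.

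Other genes of the same metabolism moved both ways. Among 33 further glutamine and glutamate enzymes, 29 were tested, 9 rose and 12 fell, and the median difference was -0.13. These counts are near the shares of all genes tested, 30.5% higher and 40% lower. The counts of the lists that follow are to be read against the same shares. *Bcat1*, the cytosolic branched-chain transaminase that makes glutamate, rose by 4.92 (SE 0.07, adjusted p = 1.07e-07 in limma), from -1.87 to 3.05. *Kyat3*, a transaminase of kynurenine and glutamine, rose by 2.15, and *Ggct*, of the glutathione cycle, fell by 1.83 (adjusted p = 6.22e-07 in limma). *Glul*, glutamine synthetase, which makes glutamine from glutamate, was at 1.37 ± 0.06 in WT and 1.38 ± 0.03 in IG27 cells (SD, n = 3), a difference of 0.01 (adjusted p = 0.855 in limma), and its other probes gave 0.09 and -0.02.

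Of 19 genes of the proline, ornithine and arginine steps next to *Oat* and *Aldh18a1*, 12 were tested, 5 rose and 6 fell, with a median of -0.08. *Prodh*, which degrades proline, rose by 1.73 (adjusted p = 1.45e-06 in limma), *P4ha1*, which hydroxylates proline in collagen, rose by 1.67 and *Sms*, spermine synthase, rose by 1.05.

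Carriers beside *Slc1a5* were 27, most at the plasma membrane and some on vesicles or lysosomes. Of these 20 were tested, 7 rose and 6 fell, with a median of 0.04. *Slc1a3*, a glutamate carrier of astrocytes, was not well above background in WT and was at least 20.6-fold higher in IG27 cells (adjusted p = 1.79e-07 in limma). *Slc7a11*, which exports glutamate in exchange for cystine, and *Slc38a4*, an amino acid carrier, were likewise not well above background in WT and at least 3.22-fold and 3.06-fold higher in IG27 cells (adjusted p = 1.17e-04 and 3.87e-06 in limma). These 3 genes and another carrier among the 7 that rose could, like *Slc1a5*, be tested only through their IG27 arrays. With the filter that asks for signal in both groups 3 carriers rose. With the normexp correction the differences of the 3 named genes were 2.93 for *Slc1a3*, 0.95 for *Slc7a11* and 0.56 for *Slc38a4*, each smaller than its bound. Of 13 mitochondrial carriers and enzymes of the malate-aspartate shuttle around *Got1* and *Got2*, 12 were tested, 3 rose and 7 fell, with a median of -0.27. *Slc25a12*, the aspartate-glutamate carrier of the shuttle, fell by 1.34 (adjusted p = 5.14e-06 in limma), *Slc25a22*, a mitochondrial glutamate carrier, rose by 0.89 and *Slc25a2*, an ornithine carrier, rose by 0.76 (0.35 with the normexp correction). The 7 that fell became 4 with the slide row as a block and also 4 without IG27 replicate 3.

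*Asns* is a known target of the transcription factor ATF4 in the response to amino acid shortage. Of 28 regulators and targets of that response, all 28 were tested, 15 rose and 6 fell, with a median of 0.19. *Stc2* was at least 18.8-fold higher in IG27 cells and not well above background in WT (adjusted p = 1.89e-07 in limma), though 3.03 with the normexp correction, a smaller change than that bound, and it too was tested through its IG27 arrays alone. *Nupr1* rose by 4.49 and *Cth*, which makes cysteine, rose by 4.28. *Atf4* itself was 0.38 higher (SE 0.13, adjusted p = 0.0345 in limma), a call lost in 7 of 19 alternatives, and its second probe was 0.62 higher (SE 0.08, adjusted p = 8.06e-04 in limma over probes). *Aars*, a tRNA synthetase, fell by 0.51. Of 13 known modulators of glutamine enzymes, 12 were tested, 5 rose and 2 fell, with a median of 0.17. *Myc* rose by 1.19 (SE 0.06, adjusted p = 7.70e-06 in limma), and *Sirt4*, a mitochondrial inhibitor of glutamate dehydrogenase, and *Trp53*, which is known to act on *Gls2*, rose by 1.05 and 0.75.

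**Figure D3:**
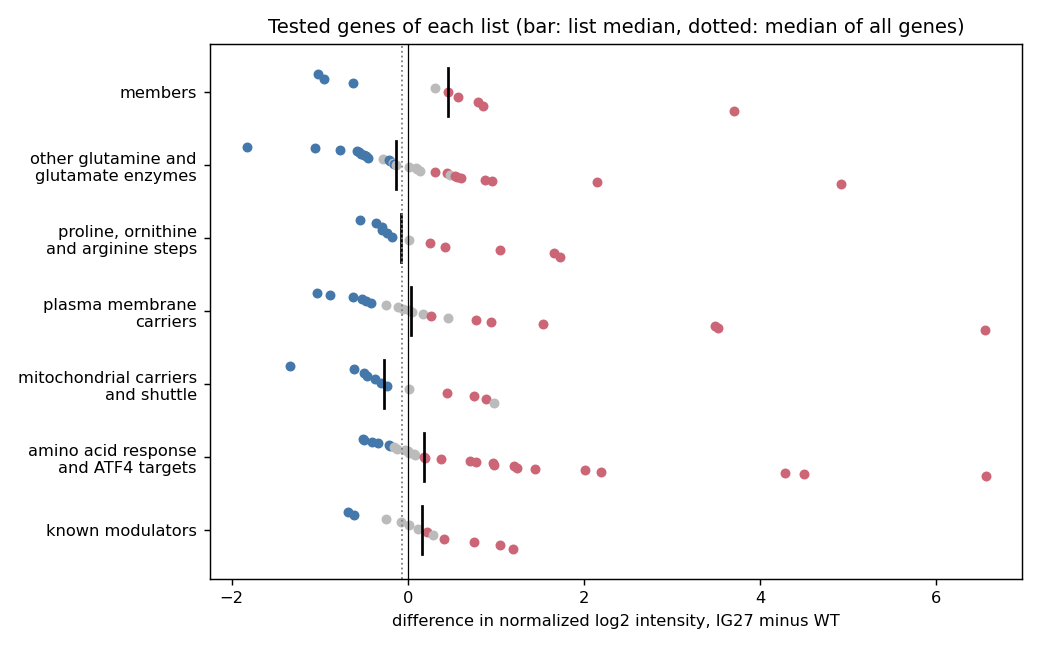
Difference in normalized log2 intensity (IG27 minus WT) of each tested gene of the 9 genes and the 6 related lists, red and blue where the gene passed as higher or lower and grey where it did not. Black bars are list medians, from -0.27 for the mitochondrial carriers to 0.46 for the 9 genes, and the dotted line is the median of all genes (-0.07). The list drawn as plasma membrane carriers also holds some carriers of vesicles and lysosomes.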

How the data were processed

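The scanner output deposited by the authors gives the intensity of each spot (processed signal, Agilent Feature Extraction, version 10.7.3.1 in the file headers and 9.1 in the submitters' processing notes), on a linear scale. IG27 replicate 2's scanner output stops after 285 of 62976 spots, so its values came from the deposited table of processed signals, which equaled its 255 single-spot probes (relative tolerance 0.0001) and which exchanges WT replicates 2 and 3. Values were log2 of that intensity minus each array's 75th percentile, without spots flagged as outliers. A probe was tested if well above background on every flagged array of at least 1 group, and the brightest probe stood for a gene. Names came from RefSeq (GRCm38.p6) for 32994 of 56605 probes, giving 22911 genes, and unnamed probes were left out. Groups were compared with limma (version 3.58.1, R 4.3.3), two-sided, without a block, with Benjamini-Hochberg adjustment over all genes and a threshold of 0.05. The same-numbered arrays did not deviate together (correlations of 0.01, 0.04 and 0.08), so numbers were not taken as pairs. The steps were tested on simulated data. Members and lists were chosen with earlier results of these data known. Named genes were all members, the 3 called genes with the largest change and no overlap in each list, *Glul*, *Atf4*, *Myc*, *H3f3a* and the 3 genes nearest to *Slc1a5*, and *Aars* and the markers were named after their values were seen. The rule as first written held a further gene, which is not reported here. Alternatives covered normalization, background, filters, probes, sources, blocks and arrays left out. The number of arrays (3 per group) limits the precision.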

Additional observations from a re-analysis of the deposited data

How the results depend on the processing

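No value of the 9 genes changed direction under any of 19 alternatives (18 for *Slc1a5*, which the filter asking for signal on every array removes). *Oat* passed under quantile normalization (0.41), and leaving out 1 array at a time gave 0.16 to 0.42 for it, passing without WT replicate 3. *Slc1a5* ranged from 1.23 to 3.86. The carriers that rose were 3 with the filter asking for signal on every array. With the slide row as a block, 3 genes of the proline, ornithine and arginine steps and 4 mitochondrial carriers fell, and leaving out 1 array at a time gave 4 to 7 for the latter, 4 without IG27 replicate 3. That block sets IG27 cells against WT replicate 2 alone, the 1 WT array in their row. The replicate block changed no call of the 9 genes and called 10309 genes against 10501 (10051 with the numbers of WT replicates 2 and 3 exchanged), and *Gpt2* was 0.85 in the fit with the replicate block. Alternatives for the 24 genes that the naming rule adds to the members were added after seeing the data, and 22 kept their side of the threshold in all of them. *Atf4* and *H3f3a* did not. For *Aars* and the markers outside those 24, the alternatives run were quantile normalization, the normexp correction and the slide row as a block. *Aars* was at -0.35, -0.68 and -0.64 in that order. Signal over background limits the size given for *Slc1a5*, whose WT level is only a bound.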
